A study of Mus musculus with 4 samples.

Results

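At 267 places in the mouse genome, the summit of a peak for the transcription factor Eos lay within 100 bp of the summit of a peak for the related factor Helios. These sites were selected on the summit positions of the authors' deposited peak lists. A summit is the base at which a peak is highest. The sites hold 24.1% of the 1106 anti-Eos peaks (95% Wilson interval 21.7 to 26.7%) and 56.9% of the 469 anti-Helios peaks (52.4 to 61.3%), and each is described here as a pair of 1 anti-Eos and 1 anti-Helios peak. The remaining 839 anti-Eos and 202 anti-Helios peaks have no summit of the other antibody within that distance. Since both lists chose the members, the closeness of the summits is a description and was not tested.

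Chromatin immunoprecipitation with sequencing (ChIP-seq) recovers DNA crosslinked to a protein with an antibody against that protein. The cells were regulatory T cells (Treg cells) from the spleens of wild-type mice, taken with a CD4+CD25+ isolation kit and fixed for 10 min in 1% formaldehyde. One immunoprecipitation used the anti-Eos antibody made for the study and the other a commercial anti-Helios antibody, 6 µg each. The sources used here give no strain, age or sex of the mice and no number of animals behind a library. The libraries from mice with floxed Eos and Foxp3-Cre, in which Eos is deleted in Foxp3-expressing cells, were not analysed here. The isolation selects on surface markers and not on Foxp3, so activated conventional CD4+ T cells could be included. With 1 library per antibody there is no replicate error. Intervals cover counting error only, and reads without molecular identifiers are not independent molecules.

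Eos, encoded by Ikzf4, and Helios, encoded by Ikzf2, are zinc finger proteins of the Ikaros family. Family members share DNA-binding fingers that recognise sequences with a GGGAA core and a second set of fingers through which they pair with themselves and with each other. Both are abundant in Treg cells, the T cells that restrain immune responses, and Eos is known as a partner of Foxp3, the factor that defines this lineage. ETS factors, which are abundant in lymphocytes, recognise a GGAA core that the Ikaros core contains.

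The DNA under coinciding summits is shown for the 8 sites, ranked by the smaller fold of the pair, whose 101-bp window lay wholly upstream of a start site, overlapped no annotated gene and held both summits. They are shown to make visible how often the shared GGAA core occurs around a summit. Sequences and start sites are those of RefSeq for GRCm38.p6 (mm10). Each is written 5′ to 3′ on the plus strand with the anti-Eos summit at base 51, and capitals mark GGAA or its reverse complement TTCC. The windows are chr11:69995562-69995662 for Phf23, chr10:80701895-80701995 for Mob3a, chr2:27540191-27540291 for the noncoding gene Gm13421, chr16:94526747-94526847 for Vps26c, chr7:97579606-97579706 for Aamdc, chr8:46739559-46739659 for Irf2, chr11:97703197-97703297 for Psmb3 and chr7:126695796-126695896 for Slx1b.
Phf23: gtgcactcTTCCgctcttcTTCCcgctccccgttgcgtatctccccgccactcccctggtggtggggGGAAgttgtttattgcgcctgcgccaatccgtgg
Mob3a: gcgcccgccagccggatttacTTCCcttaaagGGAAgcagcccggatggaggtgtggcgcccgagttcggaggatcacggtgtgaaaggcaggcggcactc
Gm13421: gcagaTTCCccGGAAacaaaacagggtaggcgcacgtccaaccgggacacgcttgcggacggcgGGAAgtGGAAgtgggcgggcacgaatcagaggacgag
Vps26c: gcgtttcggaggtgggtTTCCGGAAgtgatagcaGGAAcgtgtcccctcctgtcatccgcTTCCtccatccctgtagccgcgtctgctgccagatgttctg
Aamdc: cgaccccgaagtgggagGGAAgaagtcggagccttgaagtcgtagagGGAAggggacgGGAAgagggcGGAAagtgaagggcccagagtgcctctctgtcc
Irf2: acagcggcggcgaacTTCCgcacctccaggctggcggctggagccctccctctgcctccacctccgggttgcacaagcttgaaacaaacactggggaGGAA
Psmb3: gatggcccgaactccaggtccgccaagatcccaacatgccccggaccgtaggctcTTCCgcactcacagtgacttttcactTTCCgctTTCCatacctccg
Slx1b: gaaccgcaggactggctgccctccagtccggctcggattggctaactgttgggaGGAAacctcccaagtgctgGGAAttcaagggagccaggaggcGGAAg

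Between 2 and 4 GGAA cores were found in each of these windows. The longer GGGAA core occurred 3 times at Aamdc, 2 times each at Phf23, Mob3a and Gm13421 and 1 time at Slx1b, and was not found at Vps26c, Irf2 or Psmb3. The anti-Helios summit falls on base 55 at Phf23, 37 at Mob3a, 56 at Gm13421, 76 at Vps26c, 7 at Aamdc, 47 at Irf2, 33 at Psmb3 and 73 at Slx1b. Phf23, Irf2 and Gm13421 had the closest summits of the 8.

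Across all 267 pairs the summits were a median of 25 bp apart, with quartiles of 11 and 44.5 bp and a largest distance of 99 bp. Of the pairs, 63 (23.6%) were within 10 bp, 135 (50.6%) within 25 bp and 208 (77.9%) within 50 bp, so that most lay well inside the limit. The anti-Helios summit had the higher coordinate in 136 pairs and the lower in 127, and the median signed difference was 1 bp. Neither factor's summit was thus displaced to one side of the other along the chromosome. In every pair the peaks overlapped. Beyond the limit, the nearest anti-Helios summit was 101 to 200 bp away for 37 further anti-Eos peaks and 201 to 500 bp away for 17.

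**Figure D1:**
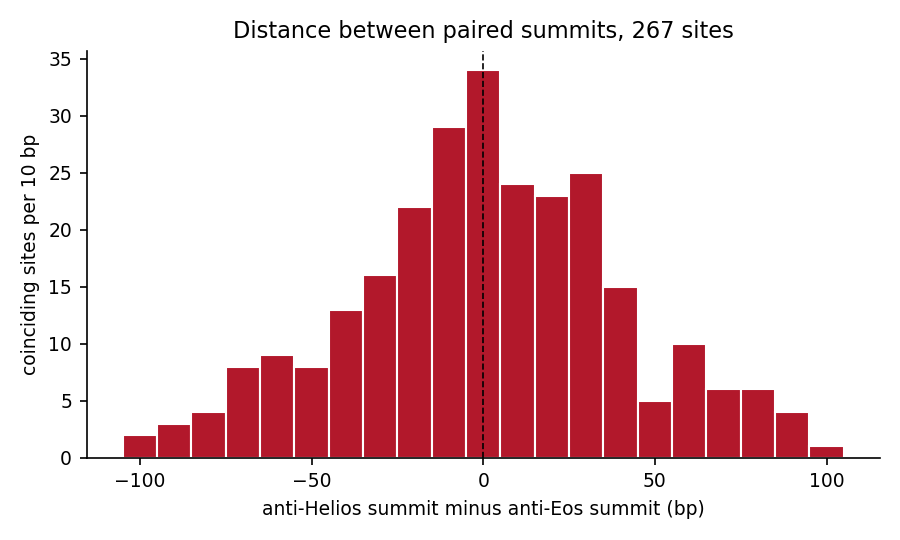
Position of the anti-Helios summit relative to the anti-Eos summit (x axis, bp) for the 267 coinciding sites, counted in bins of 10 bp (y axis, number of sites). Counts are highest around 0 and similar on both sides, with 136 sites above 0 and 127 below.

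In 4 pairs the summits fell on the same base. They lay upstream of Sfr1, a homologous recombination factor (folds 10.4 with anti-Eos and 11.7 with anti-Helios), 39859 bp from Fam102a (9.01 and 11.8), upstream of Ppp2ca, the catalytic subunit of protein phosphatase 2A (5.48 and 9.90), and between the T cell receptor alpha constant gene and Dad1 (19.2 and 5.40). A fold is the authors' enrichment of a peak over background. The pairs on each side of the limit are named by the nearest gene end. Just inside were S100a2 (96 bp, folds 11.5 and 6.27), Ppm1h (98 bp, 9.26 and 5.54) and Ccdc88c (99 bp, 5.82 and 9.30). Just outside were Lat (101 bp, 7.20 and 8.19), Oard1 (102 bp, 10.3 and 6.69) and Psd2 (102 bp, 7.72 and 6.32). That gene end was 3168 bp away at S100a2, 44249 bp at Psd2 and 123126 bp at Ppm1h, the last too far to be assigned by distance. Folds on the 2 sides of the limit fell in the same range, and Lat, the adaptor that links the T cell receptor to its downstream enzymes, is left out by 1 bp.

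Coinciding sites stood high in both lists. The anti-Eos fold had a median of 9.19 at these sites (quartiles 7.15 and 11.5, range 3.16 to 35.7), against 7.11 for the other anti-Eos peaks (5.88 and 8.45, range 1.99 to 18.8). The anti-Helios fold had a median of 8.10 (6.67 and 10.1, range 3.72 to 23.3), against 7.02 for the other anti-Helios peaks (6.00 and 8.12, range 1.93 to 15.2). Because a place is listed in both only if it passed the caller for both, these differences were not tested. Of the 20 highest anti-Eos folds, 19 were at coinciding sites, and so were 37 of the highest 50 and 62 of the highest 100. The same counts for anti-Helios were 19, 43 and 80. Even so, only 26 sites were among the 100 highest of both lists, and coinciding sites reached rank 1102 of 1106 with anti-Eos and rank 460 of 469 with anti-Helios.

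Read totals of the libraries were not used here, and depth is given as the fragments behind a peak, recovered from its deposited fold and p-value. Their number had a median of 19 (range 8 to 106) for anti-Eos at coinciding sites against 13 at other anti-Eos peaks, and of 20 (10 to 124) for anti-Helios against 15. The site with 124 anti-Helios fragments, near Sfi1, had 106 with anti-Eos, but its folds were only 5.95 (anti-Eos) and 8.61 (anti-Helios). Its background was high, at 18 control fragments for anti-Eos and 12 for anti-Helios. The anti-Eos summit lay 88 bp from an end of the pseudogene Pisd-ps1, and the values of this site are uncertain. Peaks at coinciding sites were also wider, with medians of 231 against 164 bp for anti-Eos and 188 against 160.5 bp for anti-Helios. The local background recovered with them was higher too. It reached at least 2 control fragments at 77 coinciding sites (28.8%) and 129 other peaks (15.4%) for anti-Eos, and at 86 sites (32.2%) and 32 other peaks (15.8%) for anti-Helios. The part of this background in which places were listed with both antibodies was not tested.

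Where the smaller fold of the pair was highest, both summits fell in Socs1 (chr16:10785318-10786000), 126 bp inside the start of this inhibitor of cytokine receptor signalling. Its folds were 21.9 with anti-Eos (40 fragments) and 20.5 with anti-Helios (46 fragments). Next came the start of Flt3l (chr7:45136200-45136460), which encodes the ligand of the Flt3 receptor on blood progenitors and dendritic cells, with folds of 20.1 and 18.6. The Rps19 promoter (chr7:24884347-24884565), of a small ribosomal subunit protein, followed with 24.4 and 17.5. Among these first 3 sites the 2 folds were within 1.5-fold of each other.

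The fourth site lay in the T cell receptor beta locus (chr6:41554294-41554886), with its anti-Eos summit 6.318 kb past Trbc2, a constant region gene, and folds of 33.7 and 16.8. The beta enhancer is known to be found on this side of Trbc2. The nearest protein-coding gene in the table is the trypsinogen gene Prss2, 29420 bp away. The T cell receptor alpha locus held a pair of sites between the constant gene Trac and Dad1, the interval where the alpha enhancer is known to lie. One was 3.27 kb beyond Trac (folds 6.24 and 6.09, summits 92 bp apart), and the other 9.249 kb beyond it (19.2 and 5.40, summits on the same base). Dad1 itself encodes a subunit of the oligosaccharyltransferase.

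Arih1, an E3 ubiquitin ligase, carried the highest anti-Helios fold of all (chr9:59486709-59487000, 16.6 and 23.3). The site was 1380 bp inside the gene and near an internal RefSeq start site (−432 bp, negative is upstream). Phf23, a PHD finger protein whose promoter is printed above, had 25.1 and 15.1. The interval between Izumo4 and Mob3a had 15.1 and 16.0, and Cdiptos 15.4 and 14.4. A site inside Tiam1, an activator of the GTPase Rac, rested on 106 anti-Eos and 63 anti-Helios fragments, with folds of 27.9 and 14.3. Its local background was 3 control fragments in each list. The site lay 118004 bp from the nearer end of the gene, its 3′ end, too far to be assigned by distance.

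The rest of the 20 sites with the highest smaller fold lay at and around genes of varied function. The site at the start of Gm13421 is 3706 bp from Wdr5, a core subunit of histone methyltransferase complexes (14.7 and 14). Vps26c belongs to an endosomal recycling complex (13.4 and 14.5), Ints9 to the Integrator complex that cleaves nascent RNA (21.2 and 13.3), and Shprh is a DNA repair ubiquitin ligase (12.8 and 15.7). Sites were also found at LOC102634078 (16.3 and 12.5), the vesicle tethering gene Trappc9 (14.3 and 12.1), the autophagy enzyme gene Atg3 (13.0 and 11.6) and the endocytosis gene Fchsd2 (11.6 and 11.2). Art2b encodes an ADP-ribosyltransferase of the T cell surface (12.1 and 11.8). Hspa1b had 11.9 and 18.8, and the near-identical gene Hspa1a 12.8 and 7.79. Reads cannot always be divided between these inducible Hsp70 genes, so the 2 sites are not independent and their folds are uncertain. The same caution holds for the sites at Gm21149 (11.5 and 11.1) and Speer4c (10.6 and 10.1), which lie among repeated gene copies on chromosome 5.

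The folds of a pair were close more often than not, but they followed each other only weakly. The log2 ratio of the anti-Eos to the anti-Helios fold had a median of 0.11 (quartiles −0.28 and 0.58, range −1.33 to 2.60). The anti-Eos fold was the higher in 160 pairs and the anti-Helios fold in 107, and 169 pairs (63.3%) were within 1.5-fold. Folds in the lists rest on separate backgrounds and depths, so a ratio off 0 is not by itself more of one factor. Spearman's rho across the 267 sites was 0.24, and 0.29, 0.10 and 0.24 for the 133 sites near a gene end, the 79 inside genes and the 55 outside genes. The points of each correlation share the same 2 libraries, and no p is given.

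**Figure D2:**
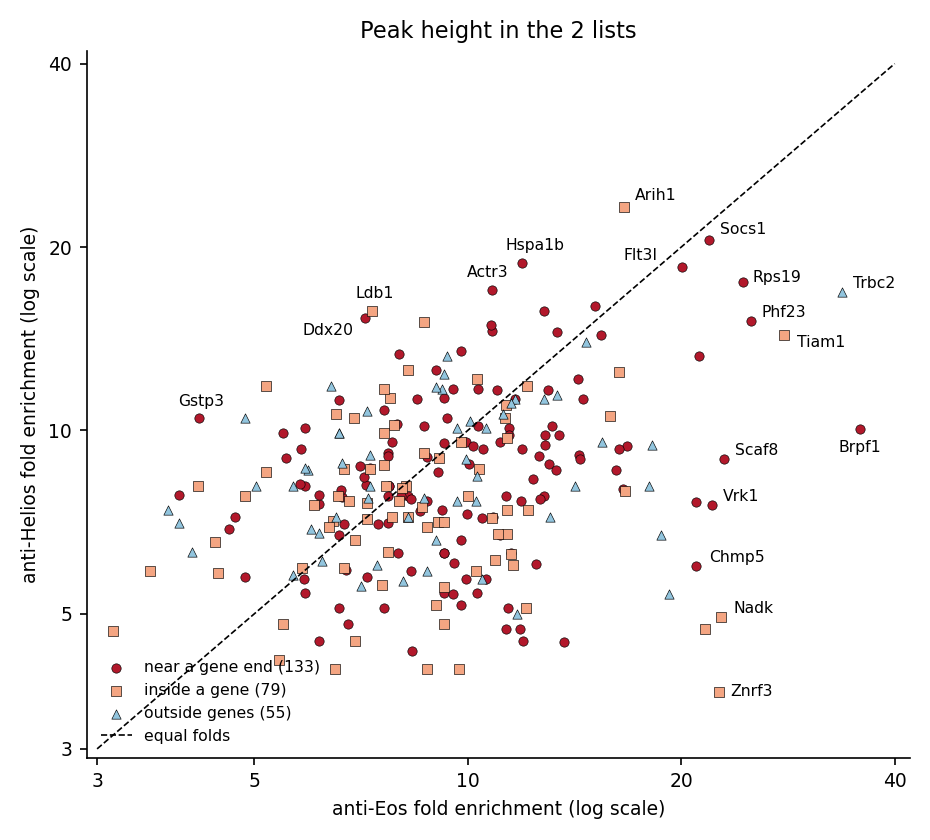
Fold enrichment of each coinciding site in the anti-Eos list (x axis, log scale) and the anti-Helios list (y axis, log scale), with points marked by location and the dashed line at equal folds. Socs1, Flt3l and Rps19 lie at the upper right near the line, while Znrf3 (22.6 and 3.72) and Brpf1 (35.7 and 10.0) lie far below it, and Gstp3 (4.18 and 10.5) lies above it.

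More than 2-fold apart were 29 pairs, 24 of them higher with anti-Eos and 5 with anti-Helios. The highest ratios were inside Znrf3, an E3 ligase that limits Wnt signalling (folds 22.6 and 3.72), Nadk, the NAD kinase (22.7 and 4.94), and Snx29, a sorting nexin (21.6 and 4.73), then at Dad1 (19.2 and 5.40) and Brpf1, a scaffold of MOZ acetyltransferase complexes (35.7 and 10.0). Their fragment counts were closer than their folds: 43 and 28 at Znrf3, 44 and 32 at Nadk, 37 and 20 at Snx29, 35 and 23 at Dad1, and 58 and 55 at Brpf1. The recovered local background was 6 control fragments for anti-Helios at Znrf3, 5 at Nadk, 4 at Brpf1 and 3 at Snx29 and Dad1, while that of anti-Eos was between 0.693 and 1.04 at all 5. At the sites that looked most Eos-weighted, the backgrounds of the lists thus differed more than the fragments did.

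The lowest ratios showed the same arrangement with the lists exchanged. They were at Gstp3, a glutathione transferase (4.18 and 10.5), Smg9, of nonsense-mediated mRNA decay (5.20 and 11.8), Rph3al, a regulator of exocytosis (4.85 and 10.5), Ldb1, an adaptor that bridges enhancers and promoters (7.33 and 15.7), and Ddx20, an RNA helicase of the SMN complex (7.17 and 15.3). Ldb1 rested on 34 fragments with each antibody and Ddx20 on 40 and 33. Anti-Eos background was 4 control fragments at Ldb1, 5 at Ddx20, 3 at Gstp3 and 2 at Smg9 and Rph3al, and anti-Helios background was between 0.672 and 1 at these 5. The part of the background in the ratios was not tested. Since the ends of this range were picked by their ratio, their values are a description.

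Coinciding sites lay at gene ends more often than the other anti-Eos peaks did. A summit within 1 kb of either end of a protein-coding gene is called near, because the gene table used gives no strand. Near were 133 of 267 coinciding sites (49.8%, 95% Wilson interval 43.9 to 55.8%), against 304 of 839 other anti-Eos peaks (36.2%, 33.1 to 39.5%). The difference was 13.6 percentage points (95% Newcombe interval 6.77 to 20.3, two-sided Fisher's exact test, Benjamini-Hochberg adjusted p = 0.000200 over 2 comparisons). A further 79 sites (29.6%) were inside genes and 55 (20.6%) outside, against 35.3% and 28.5% of the other anti-Eos peaks. Peaks of 1 library are not replicates, so the test describes these lists only.

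Against the other anti-Helios peaks no such difference was found. Of those, 106 of 202 (52.5%, 45.6 to 59.3%) were near, which put coinciding sites lower by 2.66 points (difference −2.66, interval −11.7 to 6.43, Fisher's exact test, adjusted p = 0.577). The interval still allows a difference of several points in either direction. Among anti-Eos peaks, gene-end location also went with peak strength. Within quartile groups of the anti-Eos list by −log10 q, from the weakest to the strongest, 39.3%, 44.1%, 44.4% and 55.6% of coinciding sites were near, against 31.9%, 34.3%, 36.4% and 48.4% of the others. Coinciding sites had the higher share in each group, but by less than in the whole list in each. In the strongest group alone (142 coinciding and 126 other peaks) the difference was 7.22 points (−4.70 to 18.9, Fisher's exact test, adjusted p = 0.271).

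**Figure D3:**
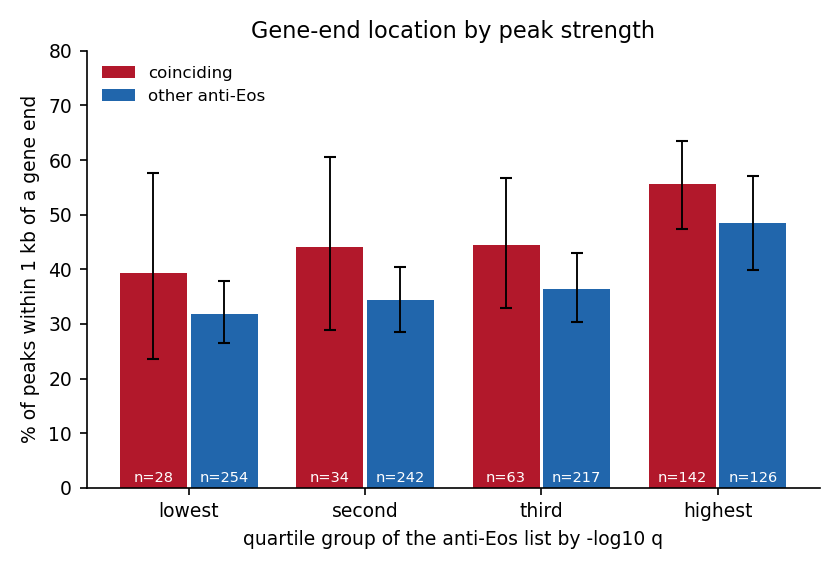
Share of anti-Eos peaks within 1 kb of a protein-coding gene end (y axis, %) by quartile group of −log10 q (x axis), for coinciding sites and other anti-Eos peaks, with 95% Wilson intervals and the number of peaks in each bar. Shares rise from 39.3 to 55.6% for coinciding sites and from 31.9 to 48.4% for the others, and the intervals overlap within each group.

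Where strand was known from the RefSeq promoter table, the near gene end was almost always a start. Of the 133 near sites, 103 were at a start, 2 at a 3′ end and 28 at genes for which the table gave no strand. Start sites were within 100 bp of 61 of 265 coinciding summits (23.0%), within 250 bp of 110 (41.5%) and within 1 kb of 132 (49.8%). For the other anti-Eos summits these shares were 15.9%, 26.1% and 36.2%, and for the other anti-Helios summits 26.7%, 43.6% and 55.9%. Of the 132 summits, 83 (62.9%) were upstream, and the median position was −28.5 bp, with quartiles of −133.75 and 53.75 bp. Other anti-Eos peaks near a start had a similar median of −32 bp. Some sites counted as inside a gene are within 1 kb of internal starts of this table. Among them are Ldb1 (−13 bp), Nadk (−392 bp), Arih1 (−432 bp) and Lef1 (−612 bp).

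**Figure D4:**
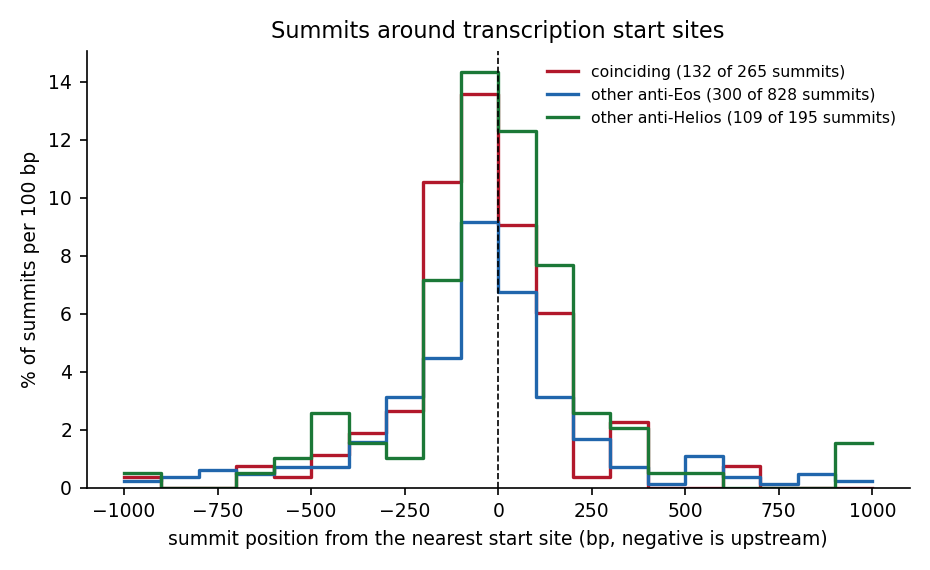
Position of summits relative to the nearest RefSeq start site (x axis, bp, negative upstream) as a share of all summits of the group per 100 bp (y axis, %). Coinciding sites (132 of 265 within 1 kb), other anti-Eos peaks (300 of 828) and other anti-Helios peaks (109 of 195) all peak next to the start, with the other anti-Eos peaks lowest there.

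Of the coinciding summits within 1 kb of a start, 21 of 132 (15.9%, 95% Wilson interval 10.6 to 23.1%) lay between or just past the starts of a divergent gene pair. The anti-Eos summit at Cltc, for example, lay 5 bp past a start. The share was 24 of 300 (8%, 5.43 to 11.6%) for other anti-Eos and 10 of 109 (9.17%, 5.06 to 16.1%) for other anti-Helios peaks, with overlapping intervals and no test. Such sites included the start shared by Slc35a5, a nucleotide sugar transporter, and Atg3, and that of Polk, a translesion DNA polymerase, and Cert1, a ceramide carrier (folds 14.4 and 8.99). Tcf19 and Cchcr1 (7.72 and 9.07), the replication origin gene Orc4 and Mbd5 (7.74 and 8.11), and Bag1, a chaperone cofactor, and Chmp5, an endosomal sorting protein (21.0 and 5.98), were others. Slx1b and Bola2 share the last of the promoters printed above (7.99 and 13.3). At 18 of the 134 sites away from protein-coding ends, the end of another kind of gene was within 1 kb, in 14 cases a long noncoding RNA gene.

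Within 100 kb, 260 sites had a protein-coding gene end, and these sites pointed to 252 genes, 1.15% of the 21887 protein-coding genes in the table. Any anti-Eos summit pointed to 884 genes, or 4.04%. Nearest is a matter of distance and does not show which gene a site acts on. Of 153 genes in 6 lists of T cell biology, 19 (12.4%) were nearest to a coinciding site, against the 1.15% over all genes. Of 40 marker genes of other blood cells (B, myeloid, erythroid, CD8 and NK), none was, and none had an anti-Eos summit. An anti-Helios summit was nearest to 1 of them, the myeloid gene Cebpb. At the shares over all genes, 1.15% and 4.04%, few or none of 40 genes would be found. These counts are near those shares and do not show an absence. An anti-Eos summit was nearest to 17 of 39 receptor signalling genes, 10 of 21 interleukin-2, STAT5 and cytokine feedback genes, and 19 of 44 transcription factor genes. The same held for 9 of 26 Treg, 6 of 18 homing and 5 of 8 mRNA decay genes. Over all genes the share was 4.04%, so a raised share was not particular to coinciding sites. All of these lists were drawn up with earlier results of these data known, and no test of a list was made.

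T cell receptor signalling had the most listed genes, 7 of 39 (17.9%), of the 17 with any anti-Eos and 13 with any anti-Helios summit. Zap70, the kinase recruited to the activated receptor, had its site 50 bp inside its start (folds 13.3 and 8.60, summits 4 bp apart). Cd3d, a chain of the receptor complex, had one 520 bp from its 3′ end (10.6 and 5.70). In both the anti-Eos fold was the higher.

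Dgka removes diacylglycerol and so dampens the signal. Its site lay 1286 bp upstream of the gene, with folds of 13.4 and 11.4 and summits 4 bp apart. Csk, the kinase that restrains Lck, had a site 13000 bp inside the gene (6.91 and 10.5). Ptprc, which encodes the phosphatase CD45, had one 39179 bp inside (6.79 and 7.66), and Prkcq, protein kinase C theta, one 23234 bp inside (6.93 and 4.51). Sites thus lay near the receptor chain, kinases that carry the signal and enzymes that limit it, at starts for some and deep inside the gene for others.

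In the list of the interleukin-2 and STAT5 axis with cytokine feedback, 4 of 21 genes (19%) had a site. Those of Socs1 and Flt3l were at their starts as above. Il2rb encodes the receptor beta chain shared by interleukin-2 and interleukin-15, and its site was 15869 bp inside the gene (10.3 and 12.1). Il6ra, the interleukin-6 receptor, had its site 3101 bp from the 3′ end (8.66 and 15.1). The 4 genes encode a feedback inhibitor, a ligand and receptor chains, and the list's median folds were 15.2 and 16.8. Flt3l and Il6ra serve other cytokine receptors than that of interleukin-2, yet enter this share and these medians. Il2ra, Il4ra, Jak1 and Mcl1 had an anti-Eos summit but no anti-Helios summit nearest to them, and Cish and Socs3 had summits of both that did not coincide.

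Of the transcription factor genes, the largest T cell list, 3 of 44 (6.82%) had a coinciding site, against 1.15% over all genes, and 19 had an anti-Eos summit. Lef1, an effector of Wnt signalling and T cell development, had a site 1882 bp (10.0 and 7.79) and another 47333 bp (8.23 and 7.21) inside. The former was near an internal RefSeq start site of Lef1 (−612 bp, negative is upstream). Junb, an AP-1 subunit, had a site 87 bp inside its start (9.26 and 6.28), and Bcl11b, which fixes T cell identity, one 17711 bp from its 3′ end (4.16 and 8.10). Ikzf1, Ikzf2, Ikzf3 and Ikzf4, which encode Ikaros, Helios, Aiolos and Eos, each had an anti-Eos summit and no coinciding site. One coinciding site did lie 4.01 kb from Ikzf4, the gene that encodes Eos, but was assigned to the neighbouring ribosomal gene Rps26, 323 bp upstream of its start (12.3 and 8.33).

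Treg signature genes had sites at 2 of 26 (7.69%), against 1.15% over all genes, and 9 had an anti-Eos summit. Pdcd1 encodes the inhibitory receptor PD-1, with a site 2788 bp beyond its 3′ end (9.65 and 10.1). Capg encodes a protein that caps actin filaments, with a site 10049 bp from its 3′ end (10.3 and 5.87). Homing and recirculation had 2 of 18, Itgal, the alpha chain of the integrin LFA-1, 54 bp from a gene end (6.58 and 5.11), and S1pr1, the receptor through which T cells leave lymphoid organs, 27627 bp from the gene (3.77 and 7.41). The homing share was 11.1%, and 6 of its genes had an anti-Eos summit. Both pairs of the homing list were low in the anti-Eos list, at ranks 719 and 1098. Zfp36l2, of the family that directs mRNAs to decay, was the 1 listed gene of 8 in its group and the 1 gene with 3 coinciding sites. These lay at 143 bp (5.89 and 5.41), 595 bp (5.80 and 8.17) and 67464 bp (10.5 and 5.70) from a gene end, among 6 anti-Eos summits nearest to it.

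In the remaining lists, 2 of 57 cytosolic ribosomal protein genes (3.51%), Rps19 and Rps26, and 3 of 29 histone modifier and corepressor genes (10.3%), Brpf1, Phf23 and Wdr5, had a coinciding site. The share over all genes was 1.15%. Genes nearest to 2 sites each were Dad1, B4galnt1, Lef1, Rere, Snx29 and Tspoap1. B4galnt1, an enzyme of ganglioside synthesis, had both near an end (9.54 and 11.7, and 7.18 and 8.12), and Rere, a nuclear receptor corepressor, had both inside (11 and 6.77, and 3.56 and 5.87). The second Snx29 site had 8.17 and 8.11, and the sites at Tspoap1 had 8.66 and 7.75, and 8.10 and 5.65. Sites of 1 gene could therefore differ from each other, as at Rere with anti-Eos folds of 3.56 and 11.

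A pair of gene families was singled out after the list of nearest genes had been seen. Of 61 genes of protein phosphatase 1 and 2A subunits and regulators, 6 (9.84%) were nearest to a coinciding site, with 12 nearest to any anti-Eos summit. They were the catalytic subunits Ppp1ca (5.54 and 9), Ppp1cb (9.26 and 11.3) and Ppp2ca (5.48 and 9.90), the scaffold Ppp2r1a (12.9 and 9.45), and the regulators Ppp1r8 (10.3 and 5.41) and Ppp1r18 (5.48 and 4.81). In 5 of these 6 the site was within 1 kb of a gene end. All 3 Hspa genes with an anti-Eos summit, of 13 in the table, had a coinciding site, Hspa4 at 12.6 and 7.73 besides Hspa1a and Hspa1b. The sites of the near-identical Hspa1a and Hspa1b are not independent, which limits this count. Over all genes the shares were 1.15% for a coinciding site and 4.04% for any anti-Eos summit. Since these families were noticed in the same list, the counts are descriptions.

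Chromosome 11 held the most coinciding sites, 29, and also the most peaks of each list. Of its anti-Eos peaks 24.6% coincided, close to the 24.1% of the whole list. Each of the 21 chromosomes used held at least 1, with 2 on the X chromosome. The 1 site on the Y chromosome was 3621 bp from Gm52481 (4.08 and 6.32) and is uncertain, since much of that chromosome is repeated.

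Sequence was examined at the 68 coinciding sites whose whole 101-bp window fell inside a promoter of the RefSeq table, which runs from 250 bp before to 50 bp after a start. The comparison groups were 124 windows of other anti-Eos peaks, 46 of other anti-Helios peaks, and 1 window of the same length at the median position of the coinciding summits, 97 bp upstream, in each of 32851 promoters. Both strands were searched. The Ikaros core GGGAA was in 55.9% of coinciding windows (95% Wilson interval 44.1 to 67.1%), 41.1% of other anti-Eos windows (32.9 to 49.9%), 41.3% of other anti-Helios windows (28.3 to 55.7%) and 28.4% of all promoters. The longer TGGGAA, which contains it, was in 14.7%, 10.5%, 17.4% and 9.08%. The interval for the shorter core lay above the promoter share at coinciding and other anti-Eos summits and reached down to it at other anti-Helios summits. For the longer one, the interval at coinciding sites (8.19 to 25%) held the promoter share. In windows of 100 bp to each side, possible at 39 coinciding sites, TGGGAA was in 30.8% (18.6 to 46.4%) against 17.5% of all promoters, and the interval lay above that share. Other anti-Helios windows of that length held TGGGAA in 29.2% and other anti-Eos windows in 16.7%.

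The ETS-type letters were also more frequent at summits than in all promoters. CCGGAA was in 27.9% of coinciding windows, 25% and 32.6% of the other anti-Eos and anti-Helios windows, and 5.26% of all promoters. AGGAAG was in 35.3%, 29.8%, 23.9% and 13.4%. The GC box GGGCGG was in 39.7% (28.9 to 51.6%) against 20.2% (14 to 28.1%) of other anti-Eos windows, 41.3% of other anti-Helios windows and 19.5% of all promoters. For the GC box, coinciding windows were therefore close to the other anti-Helios windows, and the interval did not meet that of the other anti-Eos windows. In windows of 100 bp to each side it did, with 64.1% (48.4 to 77.3%) against 42.4% (31.2 to 54.4%). The CCAAT box, bound by NF-Y, was in 10.3% against 18.4% of all promoters. The AP-1 letters TGANTCA, the CRE letters TGACGTCA, the STAT letters TTCNNNGAA, the forkhead letters TGTTTAC and the E-box CACGTG were in 0 of 68 windows, which allows a share of up to 5.35% (Wilson), and in between 0.664 and 3.05% of all promoters. A difference from all promoters was therefore not detectable for these letters. In windows of 100 bp to each side, STAT letters were in 5 of 39 coinciding windows (12.8%, 5.6 to 26.7%) against 5.53% of all promoters. Other anti-Helios windows of that length held them in 16.7% and other anti-Eos windows in 7.58%.

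The motifs GGAA and GGAAG were added after these results had been seen. GGAA, which the Ikaros core and both ETS motifs contain, was in 66 of 68 coinciding windows (97.1%), 87.9% and 89.1% of the other anti-Eos and anti-Helios windows and 67.5% of all promoters. GGAAG was in 83.8% (73.3 to 90.7%), against 64.5% (55.8 to 72.4%), 71.7% and 34.2%. The GGAA nearest to the anti-Eos summit was a median of 10.5 bp away, and in 54 of the 66 windows it was within 25 bp. GGGAA was a median of 14 bp away and within 25 bp in 33 of 38 windows. At other anti-Eos summits the median for GGAA was 9.5 bp. Windows reach only 50 bp to each side and often hold several cores, which keeps the nearest one close, and whether cores gather at the summit was not tested.

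Base composition differed between the groups. Coinciding windows had a mean GC content of 63.7% and 7.72 CG dinucleotides, against 60.9% and 6.19 for other anti-Eos windows, 66.0% and 8.65 for other anti-Helios windows, and 54.1% and 4.17 for all promoters. The part of base composition in the shares was not tested. A match to letters is a description of the sequence and not a site of binding. The 68 windows are promoter sites, and the sequence of the other coinciding sites was not used here.

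**Figure D5:**
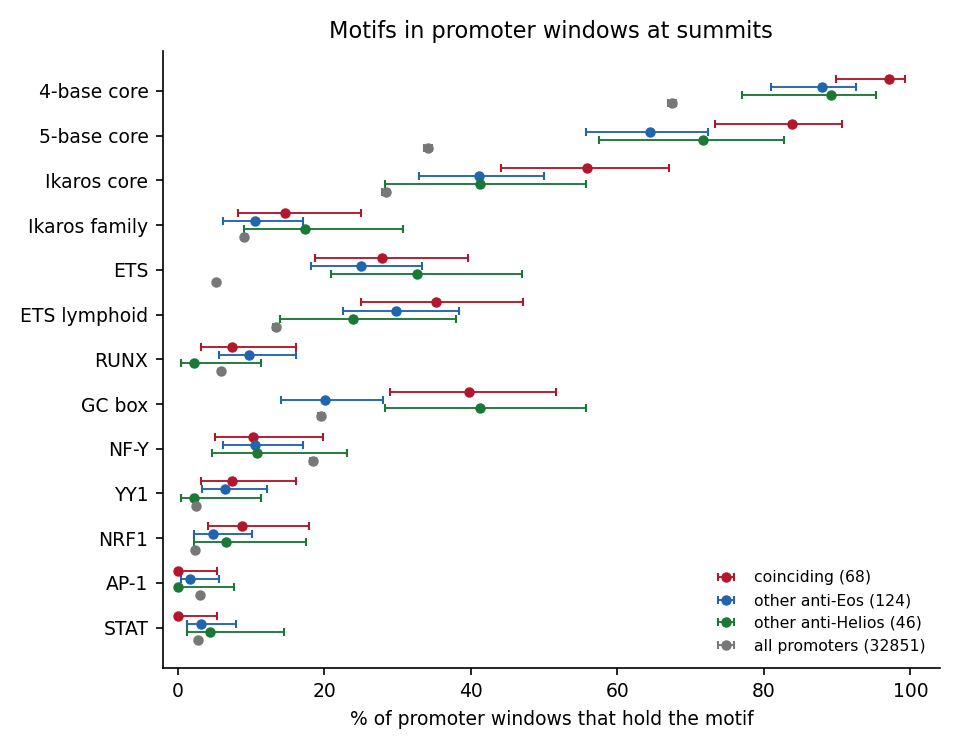
Share of 101-bp promoter windows that hold each motif (x axis, %) for 68 coinciding, 124 other anti-Eos and 46 other anti-Helios summits and 32851 promoters, with 95% Wilson intervals; the 4-base core is GGAA, the 5-base core GGAAG, and the Ikaros core GGGAA. The GGAA core reaches 97.1% at coinciding sites against 67.5% of all promoters, while AP-1 and STAT letters are at 0 in coinciding windows of this length.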

How the data were processed

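Anti-Eos and anti-Helios ChIP-seq of wild-type splenic Treg cells was used, 1 library each. The submitters' processing notes list BWA 0.7.1, SAMtools 1.17, Picard, deepTools 3.5.1 and cutadapt 4.4, with the builds GRCm38.p6 and mm10. Neither a peak caller nor a control library is given in the sources used here. The deposited lists give 1 line per peak, called separately per library, with the authors' fold enrichment (a ratio), −log10 p-value and −log10 q-value, a score derived from the q-value and the summit offset (another number per peak). Weaker places are not listed, since −log10 q starts at 2.08 (anti-Eos) and 2.24 (anti-Helios).

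Summits were paired on the same chromosome (1 to 19, X, Y) when at most 100 bp apart. Genes came from the RefSeq table of GRCm38.p6. It gives no strand, so either gene end was used in place of the start site that had been planned, and strands came from the RefSeq promoter table. Exons were not assigned. Fragments and local background were solved from fold and p with a MACS-type formula, an inference that gave both values for 100% of peaks within a relative tolerance of 0.0001. A background of 0.943 (anti-Eos) or 1 (anti-Helios), the commonest value above the lowest background, was taken as 1 control fragment. Control fragments were thus not counted directly. Few fragments at each summit make single folds imprecise.

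Two-sided Fisher's exact tests compared near-end shares, Benjamini-Hochberg adjusted over 2 comparisons, threshold 0.05 (Python 3.11.15, scipy 1.17.1, statsmodels 0.14.6, pandas 2.3.3). The scripts were tested on simulated data. Named were the 20 sites with the highest smaller fold, the 5 highest and 5 lowest fold ratios, sites nearest to T cell list genes, genes with 2 or more sites, the 3 pairs on each side of the 100 bp limit and 3 pairs with equal summits (all 4 are given); families, the receptor loci, divergent starts and other list genes were named after their values were seen. One gene that this rule names is not reported here. The members and lists were chosen with earlier results of these data known.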

Additional observations from a re-analysis of the deposited data

How the results depend on the processing

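The number of coinciding sites was 208 with a limit of 50 bp, 304 with 200 bp, 309 with any overlap of the peaks by at least 1 bp and 210 when both peaks had a −log10 q of 5 or more. The last setting, which leaves out weak peaks by construction, gave a median fold of 9.78 with anti-Eos and 8.76 with anti-Helios. Assigning genes within 1 kb instead of 100 kb left 131 nearest genes, again by construction. The near-end difference from other anti-Eos peaks stayed between 11.7 and 17.1 points and past the threshold under 9 alternatives. Among the strongest quartile group of anti-Eos peaks alone, an alternative chosen after seeing the data, it was 7.22 points (Fisher's exact test, adjusted p = 0.271). That setting has fewer peaks, and whether peak strength accounts for the smaller difference was not tested. The difference from other anti-Helios peaks lay between −7.40 and 0.884 points and did not pass the threshold under any of 8 alternatives. Windows of 100 bp to each side, possible at 39 sites, held GGGAA in 76.9%, TGGGAA in 30.8%, AGGAAG in 64.1% and GGGCGG in 64.1%, against 48.6%, 17.5%, 24.7% and 29.8% of all promoters in windows of that length. Other anti-Eos windows held these motifs in 62.1%, 16.7%, 47.0% and 42.4%. Other anti-Helios windows held them in 58.3%, 29.2%, 37.5% and 66.7%. For TGGGAA and GGGCGG, coinciding windows were thus close to the other anti-Helios windows. Depth limits the precision of single sites, with a median of 19 and 20 fragments at the summit of a peak. No paired analysis was possible because each group has 1 library.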
